A study of Mus musculus with 4 samples.

Results

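The 10 genes described here encode amino acid transporters of the cell surface: Slc7a5, Slc3a2, Slc1a5, Slc38a1, Slc38a2, Slc7a1, Slc7a6, Slc7a11, Slc1a4 and Slc6a6. They were chosen by name, out of 34866 genes in the table, by a rule that uses no measured value. Earlier results of these data were known when the choice was made. The study sorted B220+ IgM+ splenocytes of 2 mice with an IgM+ Tom+ lymphoma (tumors #1 and #2) into Tom+ and Tom- cells and sequenced RNA from each, which gave 4 libraries. Both mice, and so all 4 libraries, carried the λ-MYC transgene, a human MYC gene under regulatory sequences of the Igλ light chain, together with 1 Cre knock-in allele and 1 R26tdTom knock-in allele (λ-MYC+/TG, R26tdTom+/ki), and cells without the transgene were not analysed here. Cre switches on the Tomato protein permanently, so Tom+ cells had made Cre or descend from a cell that had, and Tom- cells carry no such mark. The ages of the mice are not given in the sources used here, and each tumor is a single mouse, so its 2 libraries are not replicates of a tumor. Levels are in transcripts per 1000000 (TPM), a unit per transcript length, so genes can be compared with each other, but the read depth is unknown. Where a pair of values is given for a tumor, Tom- cells come first and Tom+ cells second.

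All 8 B cell markers examined (among them Cd79a, Cd79b, Ms4a1, Ptprc, Cd22, Pax5 and Ebf1) were present, with a summed level of 1061 to 1147 TPM in tumor #1 and 2347 to 2968 TPM in tumor #2. The 8 T cell markers summed to 0.510 to 0.536 TPM in tumor #1 and 6.08 to 8.29 TPM in tumor #2, the 8 macrophage markers to 2.07 to 4.49 TPM in tumor #1 and up to 9.26 TPM in tumor #2 with C1qa, C1qb and Cd14 listed at 0, and the 7 granulocyte markers to at most 5.64 TPM with Ly6g, Elane and Camp listed at 0. The 8 erythroid markers summed to 17.6 to 21.5 TPM in tumor #1, most of it Hbb-bs, and to 0.804 to 1.14 TPM in tumor #2, with both Hba-a genes and Slc4a1 among those listed at 0. The 7 stromal and endothelial markers summed to 15.1 to 15.2 TPM in tumor #1 and 44.4 to 50.4 TPM in tumor #2, of which Pecam1, a gene that B cells also express, made up nearly all, with Col3a1 and Pdgfrb listed at 0. The 7 plasma cell markers summed to 36.3 to 37.5 TPM in 3 libraries and to 264 TPM in Tom+ cells of tumor #2, where Jchain, which encodes the joining chain of secreted IgM, was at 209 TPM. Mitochondrial genes took 6.61% to 8.67% of TPM in tumor #1 and 14.4% to 15.6% in tumor #2, and immunoglobulin genes 5.35% to 9.76%. Pseudogenes took a larger share, 30.3% to 31.3% in tumor #1 and 23.4% to 25.4% in tumor #2. The part of the cell types behind these markers in the differences described here was not tested. Rescaling without immunoglobulin genes, or without pseudogenes and mitochondrial genes, kept the sign of each tested transporter's mean difference between the tumors. For Slc3a2 that difference, tumor #2 minus tumor #1 in log2(TPM + 1), was -0.80 as deposited and -0.77 in either case.

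Amino acid carriers supply a dividing lymphocyte with the material for protein and nucleotide synthesis, and MYC-driven cells are known for a high demand for glutamine and essential amino acids. Slc3a2 encodes the heavy chain 4F2hc (CD98), a protein that carries no amino acid itself but brings a light chain to the membrane. Its light chains include the products of Slc7a5 (LAT1, which exchanges leucine and other large neutral amino acids), Slc7a6 (y+LAT2, which exchanges arginine for glutamine) and Slc7a11 (xCT, which exchanges cystine for glutamate). Slc1a5 (ASCT2) and Slc1a4 (ASCT1) exchange small neutral amino acids, Slc38a1 (SNAT1) and Slc38a2 (SNAT2) bring in glutamine and alanine with sodium, Slc7a1 (CAT1) brings in arginine and lysine, and Slc6a6 takes up taurine, an amino sulfonic acid. When amino acids run short, the transcription factor ATF4 binds composite C/EBP-ATF sites and raises several of these genes.

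The sequences shown next are the RefSeq promoters in which such a site could be looked for by its letters. Windows around the transcription start were held for 6 of the 10 genes (Slc3a2, Slc38a2, Slc7a1, Slc7a6, Slc7a11 and Slc1a4). The window of Slc3a2, bases 8713848 to 8714147 of chromosome 19, lies inside the annotated gene, away from its outermost start. Sites outside the windows were not looked for. The letters TGCATCA, the core of the C/EBP-ATF site, and TGATGCA, the same letters read on the other strand, were found in 2 of the 6, beside 3.63% of the 27025 genes with a window. Slc7a11 held 2 matches, with first bases at -66 and -46 from the start and on opposite strands, and Slc1a4 held 1, from -3 to 4, across the start itself. The sequence CACGTG, the E-box that MYC and its partner MAX bind, reads the same on both strands and overlapped no match above. It was in 0 of the 6 and in 8.09% of all genes with a window, and 6 genes are too few to show a lower share. The stretches below run 5′ to 3′ on the strand of the gene (build GRCm38.p6), with TGCATCA or TGATGCA in capitals, and Slc38a2, an ATF4 target whose known site lies in its first intron, is shown as a window without a match.
Slc7a11 (chr3:50443614-50443763, minus strand, the 150 bases before the start): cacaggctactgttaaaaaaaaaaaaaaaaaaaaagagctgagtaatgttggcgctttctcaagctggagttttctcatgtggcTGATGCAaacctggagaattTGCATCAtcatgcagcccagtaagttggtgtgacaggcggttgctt
Slc1a4 (chr11:20332710-20332863, minus strand, 150 bases before to 4 after the start): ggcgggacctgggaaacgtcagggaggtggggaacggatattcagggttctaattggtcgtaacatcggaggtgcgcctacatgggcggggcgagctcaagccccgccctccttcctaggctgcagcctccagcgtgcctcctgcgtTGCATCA
Slc38a2 (chr15:96699729-96699878, minus strand, the 150 bases before the start): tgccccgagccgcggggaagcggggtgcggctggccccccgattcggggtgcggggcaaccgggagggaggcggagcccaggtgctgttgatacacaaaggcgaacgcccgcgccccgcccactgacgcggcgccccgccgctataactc
A match describes these letters only. The 2 genes with a match, Slc7a11 and Slc1a4, were those with the lowest TPM of the 10, and the other 4 genes of the list are not covered by these windows.

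By mean level, the 10 genes fell into 4 tiers. The ranges of the middle tiers overlapped, since Slc7a1 reached 30.8 TPM and Slc38a2 went down to 30.1 TPM. Slc1a5 and Slc3a2 led, with a mean over the 4 libraries of 225 and 193 TPM, and their ranges overlapped (189.97 to 251 and 121 to 268 TPM). Slc1a5 lay between the 94.9th and 95.7th percentile of the 11339 genes that were above the limit for testing, which is 1 TPM or more in 2 libraries. Slc38a1, Slc38a2, Slc7a6 and Slc7a5 followed, with means from 41.2 to 44.4 TPM and ranges that overlapped each other, so their order is not beyond their spread. Slc7a1 (mean 22.4 TPM) and Slc6a6 (19.9 TPM) also overlapped, although Slc7a1 was the higher in all 4 libraries. Slc1a4, at 1.68 to 3.35 TPM, and Slc7a11, at 0.189 to 1.66 TPM, were far below, and Slc7a11 was the only gene of the list under the limit for testing. The plot of levels by library shows the tiers and the sets of genes whose tumors stood apart.

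**Figure D1:**
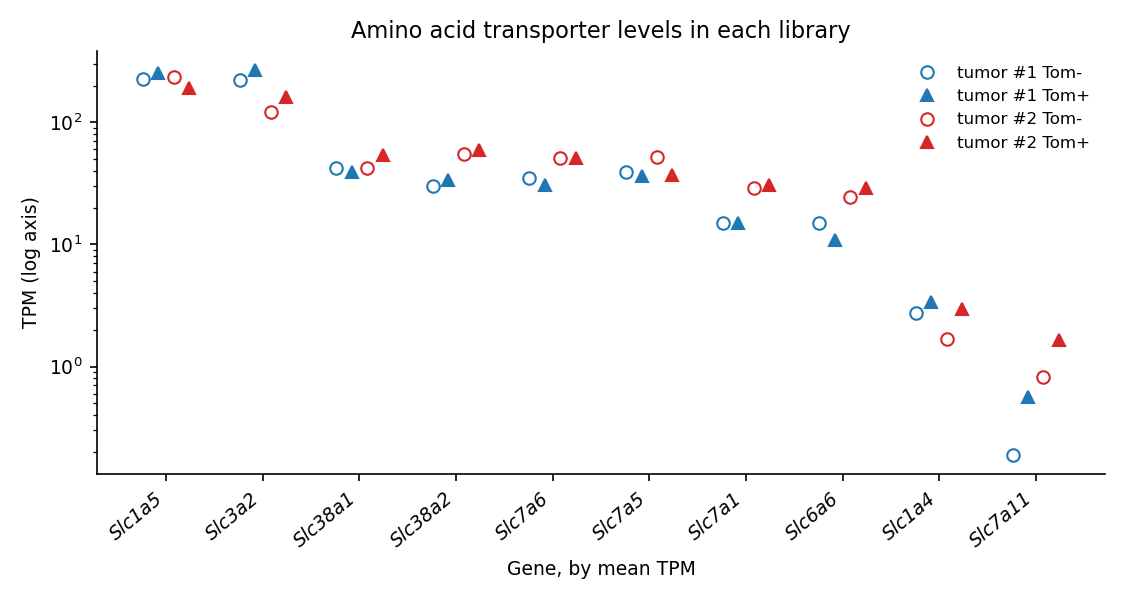
TPM of each transporter gene (log axis) in the 4 libraries, with open circles for Tom- and triangles for Tom+ cells, tumor #1 in blue and tumor #2 in red. Slc1a5 and Slc3a2 lie at 121 TPM or more in every library, whereas Slc1a4 and Slc7a11 stay at 3.35 TPM or less.

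The summed level of the 10 genes was 626 and 689 TPM in tumor #1 against 612 and 616 TPM in tumor #2. The sum thus differed by 1.10 times between the sorted cells of tumor #1 and by 1.01 times in tumor #2, and with 2 pairs the smallest p-value of an exact permutation test is 0.5. Its makeup differed more between the tumors. Slc1a5 and Slc3a2 made up 71.3% and 75.4% of the sum in tumor #1 but 58.1% and 56.9% in tumor #2. The other 8 genes summed to 180 and 169 TPM in tumor #1 and to 257 and 266 TPM in tumor #2.

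Slc3a2 (ENSMUSG00000010095, chromosome 19, 8706882 to 8723369 of GRCm38, as all positions here), the heavy chain, was at 220.2 and 268 TPM in tumor #1 against 121 and 161 TPM in tumor #2. Tom+ cells had the higher value in both tumors, and both libraries of tumor #1 were above both libraries of tumor #2. The Tom+ minus Tom- difference on the log2(TPM + 1) scale was 0.34 (SE 0.12), from 0.28 in tumor #1 and 0.41 in tumor #2. It did not pass the threshold (adjusted p = 0.936 and unadjusted p = 0.0642 from limma), although it had the smallest unadjusted p-value of the list.

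Slc7a5 (ENSMUSG00000040010, chromosome 8, 121881150 to 121907694), the light chain of the leucine exchanger, had 39.5 and 36.2 TPM in tumor #1 against 52.4 and 36.7 TPM in tumor #2. It was the only tested gene of the list with a lower value in Tom+ cells of both tumors, by a log2 difference of -0.31 (SE 0.18, adjusted p = 0.936 from limma). Tom- cells of tumor #2 stood above the other 3 libraries, which lay within 36.2 to 39.5 TPM.

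Slc7a6 (ENSMUSG00000031904, chromosome 8, 106168857 to 106198706), the light chain of the arginine and glutamine exchanger, was at 34.8 and 30.7 TPM in tumor #1. In tumor #2 both sorted populations had the same level, 51.4 TPM. The tumors did not overlap, and the log2 difference between Tom+ and Tom- cells was -0.089 (SE 0.15, adjusted p = 0.957 from limma).

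Slc7a11 (ENSMUSG00000027737, chromosome 3, 49892526 to 50443614), the cystine carrier, was at 0.189 and 0.561 TPM in tumor #1 against 0.816 and 1.66 TPM in tumor #2. Tom+ cells had the higher value in both tumors and tumor #2 the higher values throughout, but without read counts the precision of such low values is unknown, and the gene was not tested.

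Set against the heavy chain, the light chains differed between the tumors. The summed TPM of Slc7a5, Slc7a6 and Slc7a11 was 0.338 of that of Slc3a2 in Tom- cells and 0.252 in Tom+ cells of tumor #1, and 0.864 and 0.559 in tumor #2. The ratio was therefore 2.55 times higher in tumor #2 in Tom- cells and 2.22 times higher in Tom+ cells, and Tom+ cells had the lower ratio in both tumors (0.745 and 0.647 of that of Tom- cells). Being a ratio of genes within a library, it does not depend on how the libraries are scaled. The heavy chain exceeded the sum of these light chains in all 4 libraries. With the further partner genes Slc7a7, at 6.08 to 7.25 TPM, Slc7a8, at 0.0619 TPM in 1 library and listed at 0 in the others, and Slc7a10, listed at 0, the ratios were 0.368, 0.278, 0.914 and 0.604 in the same order. Slc7a5 made up 53.0%, 53.7%, 50.05% and 40.9% of the light chains.

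**Figure D2:**
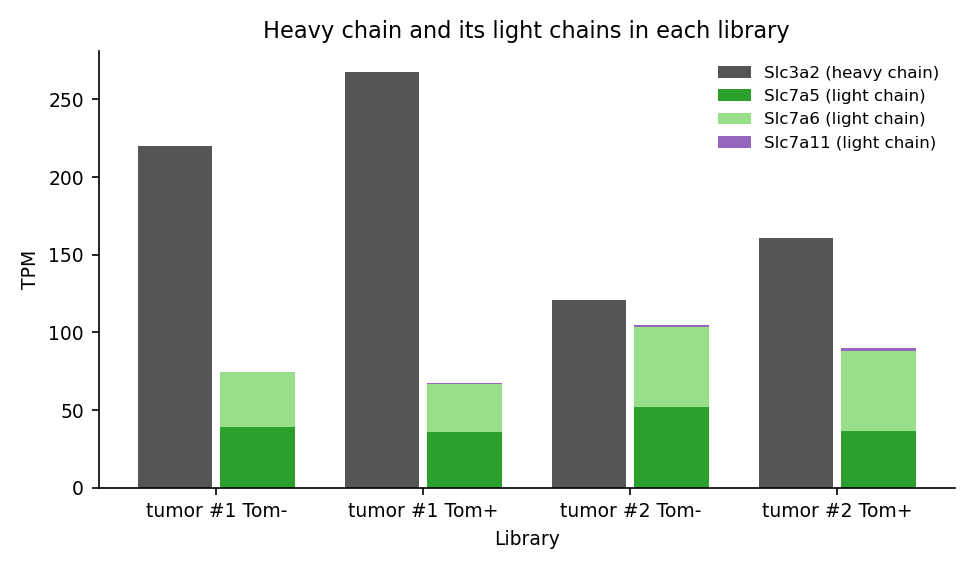
TPM of the heavy chain Slc3a2 (grey bars) beside the stacked TPM of the light chains Slc7a5, Slc7a6 and Slc7a11 in each of the 4 libraries. The grey bar is 2.96 and 3.97 times the stacked bar in tumor #1 and 1.16 and 1.79 times in tumor #2.

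Slc1a5 (ENSMUSG00000001918, chromosome 7, 16781340 to 16798274), a carrier of glutamine, was at 226 and 251 TPM in tumor #1 against 235 and 189.97 TPM in tumor #2. Tom+ cells were thus the highest library in one tumor and the lowest in the other, with log2 differences of 0.15 and -0.30 and a mean of -0.075 (SE 0.17, adjusted p = 0.970 from limma). The tumors overlapped. Its relative Slc1a4 (ENSMUSG00000020142, chromosome 11, 20302180 to 20332713) was at 2.73 and 3.35 TPM in tumor #1 against 1.68 and 2.99 TPM in tumor #2. Tom+ cells had the higher value in both tumors, with the largest log2 difference of the tested genes (0.40, SE 0.24), which did not pass the threshold (adjusted p = 0.936 from limma).

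Slc38a1 (ENSMUSG00000023169, chromosome 15, 96571418 to 96642913) and Slc38a2 (ENSMUSG00000022462, chromosome 15, 96687392 to 96699730) are neighbors on the same strand, 44.5 kb apart. Slc38a1 was at 42.5 and 39.3 TPM in tumor #1 against 42.0 and 53.9 TPM in tumor #2, so that only Tom+ cells of tumor #2 stood above the rest. Slc38a2 was at 30.1 and 33.4 TPM in tumor #1 against 54.9 and 59.1 TPM in tumor #2, with no overlap between the tumors. The ratio of Slc38a2 to Slc38a1 was 0.708 and 0.849 in tumor #1 and 1.31 and 1.10 in tumor #2, which means that the order of the pair was turned. Slc38a4, the third gene of the family at this locus, was listed at 0 in all 4 libraries. Between Tom+ and Tom- cells the log2 differences were 0.12 for Slc38a1 (SE 0.19, adjusted p = 0.954 from limma) and 0.12 for Slc38a2 (SE 0.14, adjusted p = 0.943).

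Slc7a1 (ENSMUSG00000041313, chromosome 5, 148327410 to 148399904), the carrier of arginine and lysine, had 15.0 TPM in both sorted populations of tumor #1, against 28.8 and 30.8 TPM in tumor #2. It had the smallest log2 difference between Tom+ and Tom- cells (0.045, SE 0.16, adjusted p = 0.989 from limma). The tumors did not overlap, but each is a single mouse, so the spread between mice is unknown. Slc6a6 (ENSMUSG00000030096, chromosome 6, 91684053 to 91759066), the taurine carrier, was at 14.9 and 10.8 TPM in tumor #1 against 24.6 and 29.1 TPM in tumor #2. Tom+ cells were the lowest library in tumor #1 and the highest in tumor #2, with log2 differences of -0.43 and 0.24 and a mean of -0.095 (SE 0.24, adjusted p = 0.977 from limma). On the opposite strand its exons overlap Gm44981, and since strand is not stated for the counting, reads of the genes cannot be told apart.

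The study compared tumor cells that carry the Tomato mark with those that do not, and reported differentially expressed genes between them. Its tests, a paired edgeR fit among them, were not run here, so the counts below are not set against its own. For the transporters, 0 of the 9 tested genes passed an adjusted p-value of 0.05 between Tom+ and Tom- cells in limma's test with the tumor as a block, beside 0 of all 11339 genes (0.0%). Without adjustment, 0 of the 9 had a p-value below 0.05 in that test, beside 530 of all genes (4.67%). Of all genes, 2.04% passed with a higher and 2.64% with a lower level in Tom+ cells. Tom+ cells were higher in both tumors for 3 tested genes (Slc3a2, Slc38a2 and Slc1a4), a direction held by 21.6% of all genes, and lower in both for Slc7a5, a direction held by 29.5%. The other 5 differed in sign between the tumors, as did 47.3% of all genes, and of these Slc7a6 was level in tumor #2 and Slc7a1 in tumor #1. The median log2 difference was 0.045 over the 9 genes and -0.033 over all genes. With 2 pairs and 1 residual degree of freedom per gene, a p-value that misses the threshold does not show that the populations are alike.

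**Figure D3:**
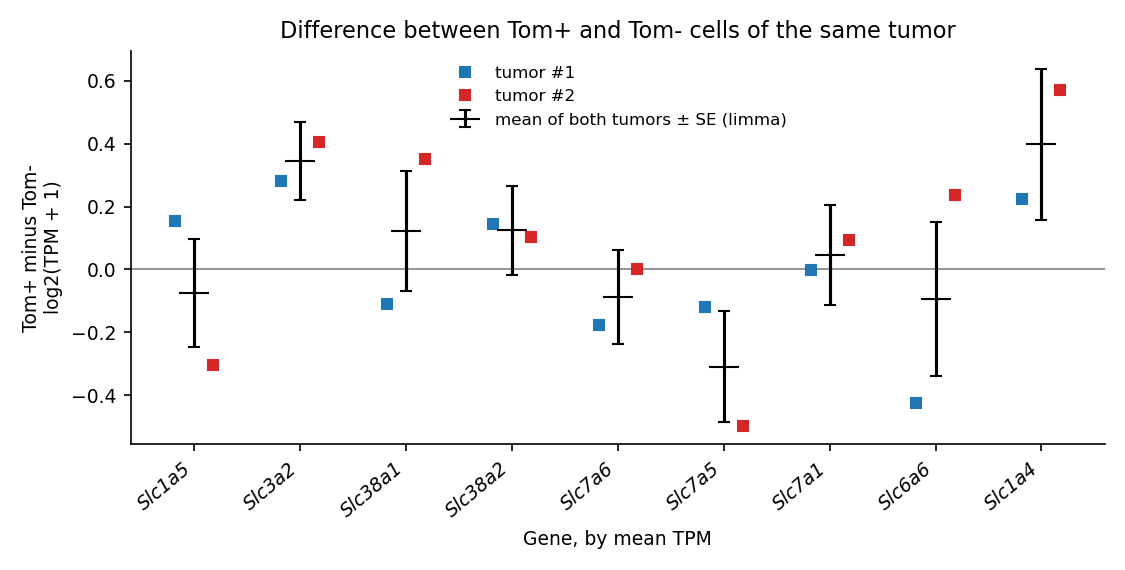
Tom+ minus Tom- difference of log2(TPM + 1) for the 9 tested transporter genes, with squares for tumor #1 (blue) and tumor #2 (red) and black bars for their mean ± the SE of limma's fit. Both squares lie above 0 for Slc3a2, Slc38a2 and Slc1a4 and below 0 for Slc7a5.

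In the median, the transporters differed more between the tumors than between the sorted cells within them. The median absolute log2 difference over the 9 tested genes was 0.64 between the tumors, beside 0.15 between Tom+ and Tom- cells of tumor #1 and 0.30 in tumor #2. For all genes these medians were 0.50, 0.20 and 0.26. In 5 of the 9 transporters the larger of the Tom differences was below the smaller of the differences between the tumors. In the other 4 it was not. The share of all genes with this order was not computed, so the count is not a result about transporters. With 1 mouse per tumor, the comparison between the tumors has no test. Both libraries of tumor #2 were above both libraries of tumor #1 for Slc38a2, Slc7a1, Slc7a6 and Slc6a6, 4 of the 9, where 44.8% of all genes did the same, and below for Slc3a2, where 23.7% did, so that 5 of the 9 did not overlap, beside 68.5% of all genes. Past a 2-fold difference on the log2(TPM + 1) scale there was 1 gene, Slc6a6 (higher in tumor #2), beside 16.2% of all genes higher and 5.1% lower. After trimmed-mean scaling Slc6a6, at 0.69, was no longer past it, and Slc3a2 was, at -1.13. These shares are near those of all genes, so the count of transporters that set the tumors apart is not a result about transporters.

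In TPM, tumor #2 had 2.08 times the mean level of tumor #1 for Slc6a6, 1.99 times for Slc7a1, 1.795 times for Slc38a2 and 1.57 times for Slc7a6, and tumor #1 had 1.73 times that of tumor #2 for Slc3a2. The log2 differences were 1.01 ± 0.47 for Slc6a6, 0.95 ± 0.067 for Slc7a1, 0.83 ± 0.030 for Slc38a2, 0.64 ± 0.13 for Slc7a6 and -0.80 ± 0.087 for Slc3a2 (SD between the Tom- and Tom+ libraries). How the libraries are scaled bears on these values, since the median difference over all genes was 0.20 in TPM and -0.096 after trimmed-mean scaling, a shift of -0.30. Relative to the median of all genes, Slc3a2 was at -0.999 in TPM and -1.04 after that scaling, Slc7a1 at 0.74 and 0.72, Slc6a6 at 0.81 and 0.79, Slc38a2 at 0.62 and 0.59, and Slc7a6 at 0.43 and 0.40. These 5 genes kept their direction and their lack of overlap under that scaling. Slc7a5 and Slc38a1, which lay at 0.0054 and 0.0095 from the median of all genes, turned from 0.21 and 0.21 to -0.12 and -0.12. After the scaling Slc1a5 and Slc1a4 joined Slc3a2 as lower in tumor #2 without overlap, 3 of 9 beside 39.3% of all genes, while 4 of 9 stayed higher beside 29.8%. The sum of B cell markers and the shares of mitochondrial genes and of pseudogenes also moved with the tumors. In bulk samples fewer cells of a type and less RNA per cell cannot be told apart.

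**Figure D4:**
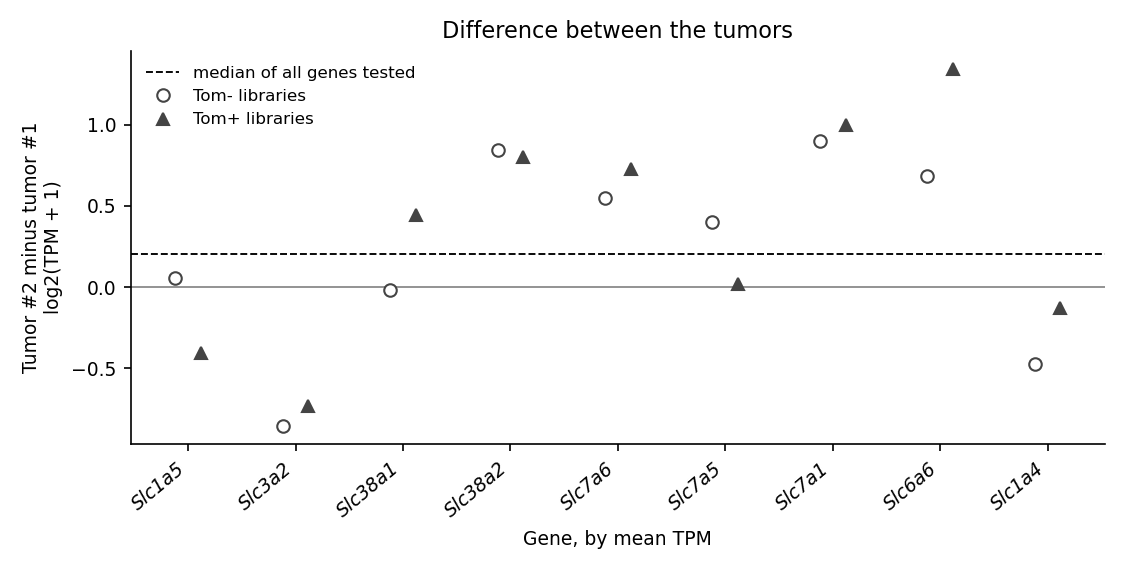
Tumor #2 minus tumor #1 difference of log2(TPM + 1) for the 9 tested transporter genes, within Tom- libraries (open circles) and within Tom+ libraries (triangles). The dashed line is the median of all genes tested (0.20), above which both points lie for Slc38a2, Slc7a6, Slc7a1 and Slc6a6, whereas both lie below 0 for Slc3a2 and Slc1a4.

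Most of the other carriers of the cell surface were at low levels. Of 22 such genes, 16 were under the limit for testing, and Slc7a9, Slc7a10, Slc38a3, Slc38a4, Slc6a14 and Slc6a19 were listed at 0 throughout. Slc43a2, a carrier of large neutral amino acids (LAT4), had 17.3 and 7.18 TPM in tumor #1 against 18.9 and 14.2 TPM in tumor #2, a log2 difference of -0.78 (adjusted p = 0.936 from limma). Slc43a1, its relative LAT3, was at 3.59 and 3.97 TPM in tumor #1 against 0.383 and 0.0300 TPM in tumor #2. Slc16a10, which carries aromatic amino acids, was at 3.34 and 4.88 TPM in tumor #1 and 2.05 TPM in both populations of tumor #2, and Slc6a9, a glycine carrier, at 1.06 and 1.18 TPM and at 0.0486 and 0.554 TPM. These 3 of the 6 tested were lower in tumor #2 without overlap, beside 23.7% of all genes, and 0 were higher, beside 44.8%. Slc43a1 and Slc6a9 reached 1 TPM in tumor #1 only, so the limit for testing fixed in advance that their tumors would not overlap. The shares of all genes include such genes as well. After trimmed-mean scaling 4 of the 6 were lower and 0 higher, beside 39.3% and 29.8% of all genes. Slc7a3, which carries arginine, was at 0.392 and 1.73 TPM and at 0.971 and 1.497 TPM.

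Carriers of the lysosome, which release amino acids from digested protein, had 9 tested members of 9, of which 0 passed the threshold between Tom+ and Tom- cells. Slc15a4, a carrier of histidine and small peptides that B cells use in Toll-like receptor signaling, was at 65.2 and 95.1 TPM in tumor #1 against 317 and 312 TPM in tumor #2, 3.92 times as high and above every one of the 10 transporters there. Slc36a4 was at 2.39 and 1.31 TPM in tumor #1 against 4.10 and 7.83 TPM in tumor #2, and Pqlc2, a carrier of cationic amino acids, at 0.723 and 0.936 and at 2.00 and 2.54 TPM. With Slc36a1 and Ctns, 5 of the 9 were higher in tumor #2 without overlap (55.6%, near the 44.8% of all genes), and 1 was lower (beside 23.7%), namely Slc38a9, the lysosomal arginine sensor, with 6.79 and 6.99 against 5.86 and 5.48 TPM. Of the 5 higher genes, Slc36a1 and Pqlc2 reached 1 TPM in tumor #2 only, so the limit for testing fixed their lack of overlap in advance. After trimmed-mean scaling 5 of the 9 were higher and 2 lower, beside 29.8% and 39.3% of all genes.

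The list for sensing of amino acids by mTORC1, the kinase complex that couples nutrients to growth, had 25 tested members of 29. Between Tom+ and Tom- cells 0 passed after adjustment, and 2 had an unadjusted p-value below 0.05 in limma's test, both lower in Tom+ cells, beside 2.64% of all genes lower. These were Wdr24, a subunit of GATOR2, with 19.7 and 7.33 TPM in tumor #1 against 19.1 and 9.61 TPM in tumor #2 (log2 difference -1.12, unadjusted p = 0.0100, adjusted p = 0.936), and Depdc5, a subunit of GATOR1, with 24.1 and 14.9 TPM and 30.7 and 19.8 TPM (log2 difference -0.63, unadjusted p = 0.0245, adjusted p = 0.936). Kptn, of the complex that places GATOR1 on the lysosome, was at 7.06 and 9.44 TPM and at 9.30 and 12.2 TPM. Among the tested genes of the list, and on the log2(TPM + 1) scale, Sesn3 (3.86 and 3.15 against 12.7 and 14.6 TPM), Nprl3 (9.08 and 11.8 against 28.8 and 35.1 TPM) and Sesn1 (12.4 and 10.9 against 27.9 and 40.05 TPM) differed the most between the tumors, all higher in tumor #2. Sestrins and Nprl3, a GATOR1 subunit, are known as brakes on mTORC1. The remaining sestrin of the list, Sesn2, was lower in tumor #2, with 1.13 and 1.05 against 0.809 and 0.855 TPM. Sesn2 reached 1 TPM in tumor #1 only, so the limit for testing fixed its lack of overlap in advance. The median log2 difference between the tumors was 0.35 for the list and 0.20 for all genes, with 14 of the 25 higher in tumor #2 without overlap and 4 lower, beside 44.8% and 23.7% of all genes. After trimmed-mean scaling 7 were higher and 6 lower, beside 29.8% and 39.3%.

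Of 26 genes listed for the ATF4 response, 18 were tested, with 0 past the threshold between Tom+ and Tom- cells and a median log2 difference of -0.0047. Atf4 itself was at 71.0 and 90.6 TPM in tumor #1 against 62.3 and 64.8 TPM in tumor #2. Asns, which encodes asparagine synthetase, was at 0.395 and 0.682 TPM in tumor #1 against 33.8 and 27.7 TPM in tumor #2, 57.2 times as high. Both values of tumor #1 were under 1 TPM, so the precision of this ratio is unknown. On the log2(TPM + 1) scale the difference was 4.37. Ddit4, an inhibitor of mTORC1, was at 3.68 and 3.78 TPM and at 43.0 and 33.1 TPM. In the other direction, Cbs, an enzyme that leads from homocysteine to cysteine, was at 4.25 and 4.87 TPM in tumor #1 against 0.448 and 0 TPM in tumor #2. In all, 11 of the 18 were lower in tumor #2 without overlap (61.1%, beside 23.7% of all genes) and 5 were higher (beside 44.8%), namely Asns, Ddit4, Psph, Cebpb and Cebpg. Asns and Cebpb reached 1 TPM in tumor #2 only, and Cbs and Sesn2 in tumor #1 only. The limit for testing thus fixed in advance that the tumors would not overlap for these genes. After trimmed-mean scaling 17 of the list were tested, of which 12 were lower and 3 higher, beside 39.3% and 29.8% of all genes. Aldh18a1, which makes proline precursors, was lower in tumor #2, with 75.6 and 75.9 against 28.1 and 55.8 TPM, and Psph, which completes serine synthesis, higher, with 15.6 and 13.4 against 25.7 and 21.6 TPM. Cebpb was at 0.201 and 0.487 TPM in tumor #1 against 1.13 and 1.41 TPM in tumor #2.

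Among 13 tested enzymes of 16 that use glutamine, glutamate and cysteine after uptake, 0 passed the threshold between Tom+ and Tom- cells. Glud1, glutamate dehydrogenase, was at 148 and 110.5 TPM in tumor #1 against 118 and 117 TPM in tumor #2. Got2, a mitochondrial aminotransferase, was at 105 and 95.1 TPM in tumor #1 against 59.9 and 58.8 TPM in tumor #2, and Gclm, a subunit of the enzyme that starts glutathione synthesis, at 34.2 and 22.6 against 44.2 and 54.0 TPM. Gpx4, a glutathione peroxidase, was at 230.4 and 240.0 TPM and at 143 and 194 TPM, and Gpt2, an alanine aminotransferase, at 1.70 and 1.45 TPM and at 1.89 and 4.08 TPM. Tumor #2 was higher without overlap for 4 of the 13 (30.8%, beside 44.8% of all genes) and lower for 4 (beside 23.7%). After trimmed-mean scaling 2 were higher and 7 lower, beside 29.8% and 39.3% of all genes.

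All 20 cytosolic aminoacyl-tRNA synthetases, which load the amino acids brought in by the carriers onto tRNA, were tested, and 0 passed the threshold between Tom+ and Tom- cells, with a median log2 difference of -0.0087. In tumor #2, 15 of the 20 were lower than in tumor #1 without overlap (75.0%, beside 23.7% of all genes), 1, Dars, was higher, and the median log2 difference was -0.24. After trimmed-mean scaling these became 19 lower (95.0%, beside 39.3%), 0 higher and -0.57. Iars, for isoleucine, stood out with 114 and 113 TPM in tumor #1 against 48.1 and 57.4 TPM in tumor #2. Aars was at 43.2 and 42.3 against 30.5 and 30.6 TPM and Yars at 61.0 and 63.3 against 44.0 and 45.1 TPM. Cars, Farsa and Wars had the largest differences between Tom+ and Tom- cells of 1 sign in both tumors (log2 differences 0.29, 0.29 and -0.24, each with an adjusted p-value of 0.936 from limma). The mouse gene Myc was at 38.1 and 39.3 TPM in tumor #1 against 44.9 and 45.6 TPM in tumor #2, and whether reads of the human transgene were counted with it is not given in the sources used here.

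**Figure D5:**
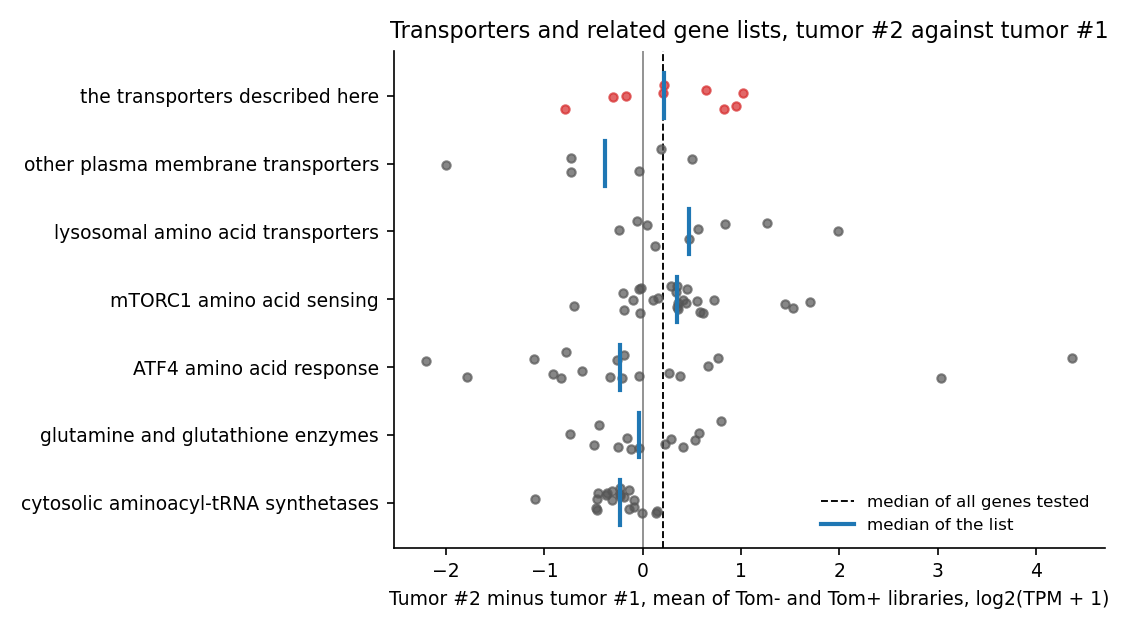
Tumor #2 minus tumor #1 difference of log2(TPM + 1), mean of the Tom- and Tom+ libraries, with 1 point per tested gene for the transporters described here (red) and for 6 related lists (grey); height within a row is arbitrary. Blue bars are list medians, from -0.38 for other plasma membrane transporters to 0.47 for lysosomal transporters, and the dashed line is the median of all genes (0.20).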

How the data were processed

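Single reads of 4 poly(A) RNA libraries (2 tumors, Tom- and Tom+ cells, 1 library each) were processed by the authors, who obtained reads with CASAVA 1.8, used Cutadapt for trimming and Salmon 1.9 for quantification against GRCm38 transcripts, and deposited TPM per gene. How transcripts were summed to genes is not given in the sources used here. TPM holds no read counts, so depth is unknown, intervals for counting error are not given, and the study's edgeR test, which needs counts, was not run. Names and positions came from GENCODE M21 on GRCm38, which held 34582 of the 34866 identifiers, and promoters from RefSeq.

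Values were analyzed as log2(TPM + 1) over the 11339 genes that reached 1 TPM in 2 or more libraries, a scale that understates differences of low genes. Tom+ and Tom- cells were compared with limma 3.58.1 (R 4.3.3; variance trend, tumor as a block since both libraries come from 1 mouse, 1 residual and 2.21 prior degrees of freedom, Benjamini-Hochberg adjustment over all genes, threshold 0.05). Tumors were compared without a test. Python 3.11.15, pandas 2.3.3, numpy 2.4.6 and matplotlib 3.10.9 were used. The code of the fit was tested on simulated data with larger changes than those of the transporters. That check does not show that differences of their size would be found. The members and lists were chosen with earlier results of these data known. Named were the 10 transporters, Myc, Atf4 and the B cell markers and, in each list, tested genes with an unadjusted p-value below 0.05, the 3 with the largest Tom difference of 1 sign and the 3 with the largest difference between tumors. Genes named beyond this rule, to complete a count or a family or as listed at 0, were chosen after their values were seen. Alternatives were the fit without the block, other pseudocounts (0.1, 0.5), no filter or a stricter one (mean TPM 5), trimmed-mean scaling (30% of log ratios and 5% of levels trimmed at each end), quantile normalization, leaving out immunoglobulin genes or pseudogenes and mitochondrial genes, no variance trend, a robust prior and each tumor left out. The overlap of the tumors after trimmed-mean scaling was added after seeing the data. Ddit3, with 2 identifiers in the table, was left out of its list. Some genes that the rule names are not reported here.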

Additional observations from a re-analysis of the deposited data

Results flagged for a closer look

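For 5 transporters the Tom+ minus Tom- difference on the log2(TPM + 1) scale had opposite signs in the tumors, as for 47.3% of all genes, and the difference between the tumors was not tested. It was 0.15 in tumor #1 and -0.30 in tumor #2 for Slc1a5, -0.11 and 0.35 for Slc38a1, and -0.43 and 0.24 for Slc6a6. For Slc7a1 (-0.0019 and 0.092) and Slc7a6 (-0.18 and 2.8e-06) the sign in 1 tumor rests on a difference close to 0.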

How the results depend on the processing

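Under each alternative, 0 transporters and 0 of all genes passed an adjusted p-value of 0.05 between Tom+ and Tom- cells in limma's test. All genes with an unadjusted p-value below 0.05 numbered 530, and 140 in the fit without the tumor block, which treats the paired libraries of a mouse as independent. The other alternatives kept this count within 1.5 times, and the block changed no call of a transporter at the adjusted threshold. The fit without the block was not examined for single genes of the other lists, Wdr24 and Depdc5 included. With 1 tumor left out, the log2 difference between Tom+ and Tom- cells ranged from -0.30 to 0.15 for Slc1a5, from -0.11 to 0.35 for Slc38a1, from -0.0019 to 0.092 for Slc7a1, from -0.18 to 2.8e-06 for Slc7a6 and from -0.43 to 0.24 for Slc6a6, with no test, since no residual degree of freedom is left. No sign of a transporter's Tom difference turned under the alternatives that kept both tumors. The summed TPM of the transporters in tumor #2 was 0.937 of that in tumor #1 as deposited and 0.740 after trimmed-mean scaling, which by construction divides by the library factors. Between the tumors, trimmed-mean scaling turned Slc7a5 to -0.12 and Slc38a1 to -0.12, and leaving out the Tom+ libraries turned Slc1a5 to 0.054 and Slc38a1 to -0.018. Depth is unknown, so the precision of Slc7a11 and Slc1a4, the lowest of the list, cannot be given, and both mice are single animals.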

Other observations

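Ddit3, which encodes the ATF4 partner CHOP, has 2 identifiers in the table. ENSMUSG00000025408 had 5.33 TPM (Tom-) and 7.44 TPM (Tom+) in tumor #1, against 10.9 and 15.8 TPM in tumor #2. ENSMUSG00000116429 was listed at 0 in Tom- cells and was at 11.3 TPM in Tom+ cells of tumor #1, and was at 81.6 and 43.9 TPM in tumor #2. How the reads were divided between the identifiers is not known, so both values are uncertain.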
